A study of Mus musculus with 6 samples.

Results

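The complement genes C1qa, C1qb, C1qc, C1ra, C2, C3, C3ar1, C5ar1 and Cfb were followed in mouse mammary glands at involution day 2, through every probe set that the platform annotation assigns to 1 of these genes and no other. This gave 15 probe sets of 8 genes, out of 34958 probe sets and 18194 genes with a single symbol on the array. C3, the central component of the cascade, has no such probe set in the annotation used and was not analysed here, and 1 probe set that names C1ra together with C1rb was left out. The Rac1-/- mice (Rac1fx/fx YFP with the WAPiCre transgene, n = 3, named Nas496, Nas497 and Nas518) were compared with WT mice (Rac1fx/fx YFP without Cre, n = 3, named Nas478, Nas483 and Nas484), and both groups thus carried the floxed Rac1 alleles and the YFP reporter. Cre was under the promoter of whey acidic protein, which is active in luminal epithelial cells from mid-pregnancy, so stroma, myoepithelium and immune cells keep their Rac1. Cre was absent from the WT mice, and an effect of Cre itself cannot be told apart from the loss of Rac1 on these arrays. Mice were age matched. The study's methods give a range of ages at mating and of days of nursing before pups were removed, while the sources used here give neither each mouse's age nor its strain background. Each array held RNA of 1 inguinal gland of 1 mouse.

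Complement is a cascade of plasma and tissue proteins that marks microbes and dying cells for engulfment. In the classical pathway, C1q, built from the chains encoded by C1qa, C1qb and C1qc, binds its target, its partner proteases C1r and C1s become active, and C4 and C2 are cleaved to form an enzyme that deposits C3. Factor B (Cfb) takes the place of C2 in the alternative pathway. The small fragments released from C3 and C5 act on the receptors C3ar1 and C5ar1 of myeloid cells, and C1q, unlike most complement proteins, is made mainly by tissue macrophages and dendritic cells rather than by the liver. In the involuting gland, where alveolar cells die in large numbers after weaning, these genes bear on how corpses are tagged and on which phagocytes are present.

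C1qa, C1qb and C1qc lie beside each other on mouse chromosome 4, and C2 and Cfb are neighbours on chromosome 17. Start-site sequences from RefSeq (GRCm38.p6) matched 6 of the 9 genes, and C1qa, C2 and Cfb were not matched. The 250 bases before the start are shown for C1qb and C1qc, as members of 1 gene cluster, and for C3ar1 and C5ar1, the receptors with higher means in Rac1-/- glands. Each runs 5′ to 3′ toward the start, and capitals mark AGGAAG or its reverse complement CTTCCT, letters that contain the GGAA core bound by ETS factors such as PU.1, a regulator of myeloid genes.
C1qb, chr4:136886201-136886450, minus strand: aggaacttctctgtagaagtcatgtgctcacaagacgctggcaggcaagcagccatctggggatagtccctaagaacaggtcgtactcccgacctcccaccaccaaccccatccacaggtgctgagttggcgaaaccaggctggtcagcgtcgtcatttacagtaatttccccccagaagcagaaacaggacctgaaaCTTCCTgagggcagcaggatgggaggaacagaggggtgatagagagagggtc
C1qc, chr4:136892915-136893164, minus strand: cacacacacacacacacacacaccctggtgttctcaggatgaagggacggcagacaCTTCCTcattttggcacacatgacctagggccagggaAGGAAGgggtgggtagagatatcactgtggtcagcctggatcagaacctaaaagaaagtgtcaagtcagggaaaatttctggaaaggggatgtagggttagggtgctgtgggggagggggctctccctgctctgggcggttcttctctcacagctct
C3ar1, chr6:122856158-122856407, minus strand: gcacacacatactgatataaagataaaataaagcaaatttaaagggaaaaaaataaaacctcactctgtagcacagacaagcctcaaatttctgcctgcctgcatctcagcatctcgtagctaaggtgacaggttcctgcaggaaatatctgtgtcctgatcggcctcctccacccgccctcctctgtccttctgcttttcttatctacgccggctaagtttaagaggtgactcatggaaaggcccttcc
C5ar1, chr7:16259339-16259588, minus strand: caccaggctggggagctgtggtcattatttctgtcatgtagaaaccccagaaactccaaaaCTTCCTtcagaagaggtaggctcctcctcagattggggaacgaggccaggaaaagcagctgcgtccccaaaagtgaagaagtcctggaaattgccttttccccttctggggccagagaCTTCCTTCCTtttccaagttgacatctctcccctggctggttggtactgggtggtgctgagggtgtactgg
The letters were searched on both strands after the sequences had been read. C1qb held 1 match, starting 52 bases before the start site, and C1qc held 2, at 194 and 157 bases. C5ar1 held 3, at 189, 71 and 67 bases, of which the last pair overlap. C3ar1 and C1ra held 0 within these 250 bases. Of 32851 start-site windows in the table, 29.5% held at least 1 match and 6.25% at least 2, so matches are common, and a match is a description of letters and not of a bound site.

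The arrays of Nas497 and Nas484, 1 mouse of each group, stood apart from the other 4. On the leading principal component, with 43.6% of the variance, they lay at 195.0 and 115.5, and the other mice lay between -136.3 and 12.1. Their log2 intensities also had the narrowest interquartile ranges, 1.23 in Nas497 and 1.42 in Nas484, against 1.48 to 2.85 elsewhere. Actin control probe sets at the 3' end minus those at the 5' end, which tell of RNA quality, gave log2 values of -0.42, -1.24 and -0.30 on the Rac1-/- arrays (Nas496, Nas497, Nas518), all below the WT arrays at 0.048, 0.033 and -0.17 (Nas478, Nas483, Nas484). The part of these array differences in the results was not tested, and values are also given without both arrays. The epithelial genes Krt8, Krt18 and Epcam averaged 8.96, 10.83 and 10.53 on the log2 scale in Rac1-/- and 8.09, 9.93 and 10.66 in WT glands, so epithelial transcripts were present in both groups. Rac1 had 9.51, 9.01 and 9.84 in Rac1-/- and 9.31, 9.50 and 8.97 in WT glands on its brightest probe set, and another probe set gave a log2 difference of -0.80 (SE 0.50). Since the sources used here do not name the removed exons, this is no check of the genotype labels. Over all genes, 0 passed an adjusted p of 0.05 in limma (smallest adjusted p = 0.575), and at an unadjusted p under 0.05 Rac1-/- glands had 405 genes higher (2.23%) and 332 lower (1.82%), none of them a member. Values below are quantile-normalized log2 intensities, so 1 unit is a doubling, and each gene is given by its probe set with the highest mean unless another is named.

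All 3 chains of C1q had a higher mean in Rac1-/- than in WT glands, by 0.37 to 0.69 on the log2 scale, and none passed limma's test. In whole glands, a different number of cells of a type and a different amount of RNA per cell cannot be told apart. C1qa had 9.18, 8.44 and 8.62 in Rac1-/- glands (Nas496, Nas497, Nas518) and 8.39, 8.0 and 7.95 in WT glands (Nas478, Nas483, Nas484). Every Rac1-/- mouse thus lay above every WT mouse, though the lowest Rac1-/- and the highest WT value, 8.44 and 8.39, nearly met. C1qa was the only member with this separation, 1 of 8, where 5.41% of all genes had Rac1-/- above WT. Its means were 8.75 ± 0.39 in Rac1-/- and 8.11 ± 0.24 in WT glands (SD, n = 3 each), a log2 difference of 0.63 (SE 0.44, 95% interval -0.38 to 1.65, limma adjusted p = 0.946). When 1 mouse was left out it lay between 0.41 (without Nas496) and 0.83 (without Nas497), and the groups stayed apart each time.

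C1qb, the second chain, spread far more within each genotype than between them. Its log2 intensities were 9.79, 7.47 and 9.59 in Rac1-/- glands and 8.97, 8.88 and 6.92 in WT glands. The low mouse of each group was the one whose array stood apart, Nas497 and Nas484. The means were 8.95 ± 1.28 in Rac1-/- and 8.26 ± 1.16 in WT glands (SD, n = 3 each), with a log2 difference of 0.69 (SE 0.80, 95% interval -1.13 to 2.51, limma adjusted p = 0.953). Without Nas484 the difference of C1qb was 0.020, and without Nas497 it was 1.5. C1qc, the third chain, had 9.79, 8.40 and 8.28 in Rac1-/- glands and 8.91, 8.42 and 8.04 in WT glands. Only Nas496 lay above the WT range, and the other Rac1-/- mice lay within it. The log2 difference of C1qc was 0.37 (SE 0.55, 95% interval -0.90 to 1.63), and without Nas496 it turned to -0.11.

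**Figure D1:**
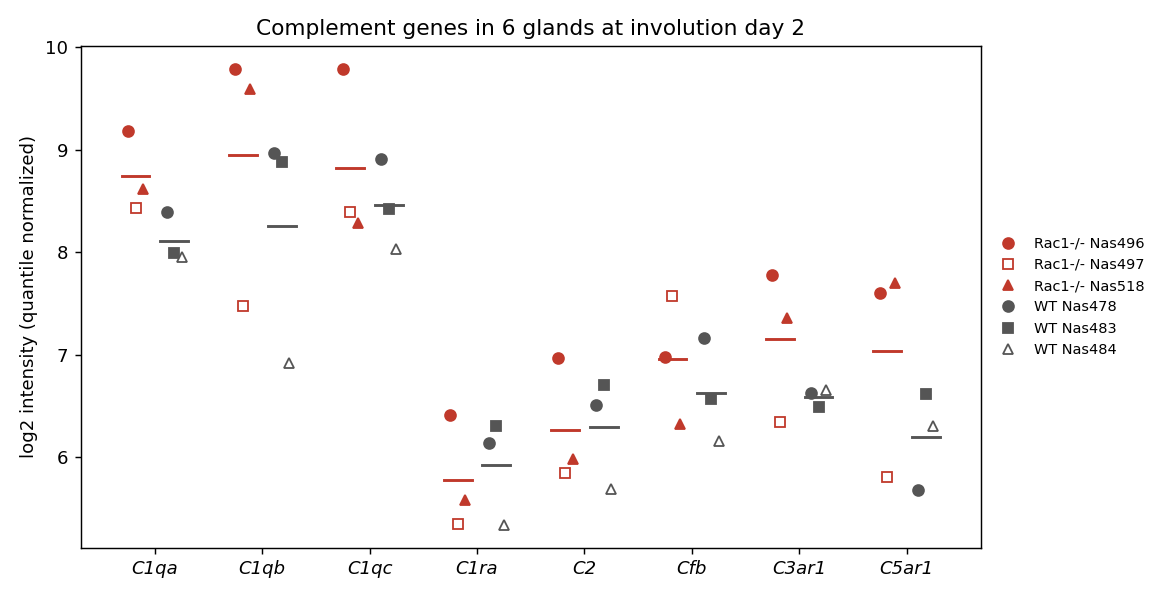
Quantile-normalized log2 intensity (vertical axis) of the 8 complement genes with a value in 3 Rac1-/- mice (red, left of each pair) and 3 WT mice (grey, right), 1 point per mouse with open points for Nas497 and Nas484, and bars for the group means. The groups separate for C1qa and overlap for the other 7 genes, and the open points of C1qb lie at 7.47 and 6.92, below the other 4 mice.

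Neither of the proteases that act after C1q passed limma's test, as none of the C1q chains did. C1ra, the C1r protease that C1q carries, had 6.41, 5.35 and 5.58 in Rac1-/- and 6.14, 6.31 and 5.34 in WT glands. The log2 difference was -0.15 (SE 0.51, 95% interval -1.30 to 1.01). C2, which supplies the catalytic part of the classical convertase, had 6.97, 5.85 and 5.99 in Rac1-/- and 6.51, 6.70 and 5.69 in WT glands. Its difference was -0.031 (SE 0.52, 95% interval -1.22 to 1.15), and for both genes Nas496 was the highest of all Rac1-/- mice and Nas484 the lowest of all WT mice. Leaving out Nas483 or Nas497 turned C1ra to 0.039 and 0.076, and C2 turned to between 0.068 and 0.20 without Nas478, Nas483, Nas497 or Nas518. These intervals span more than a doubling either way, so a change of that size in C1ra or C2 was not excluded by 3 mice a group.

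Cfb, factor B of the alternative pathway, followed another order of mice. It had 6.98, 7.57 and 6.32 in Rac1-/- glands and 7.16, 6.57 and 6.16 in WT glands. Nas497, low for C1qb on its brightest probe set, was here the highest of the 6 mice, and the groups overlapped. The log2 difference was 0.33 (SE 0.52, 95% interval -0.85 to 1.5), and it was 0.020 without Nas497, 0.67 without Nas518 and 0.091 without Nas484. Cfp, which encodes properdin, the stabilizer of the alternative convertase, had a difference of -0.33 (SE 0.54), or 0.15 without Nas497.

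Both anaphylatoxin receptors had higher means in Rac1-/- glands, and for both Nas496 and Nas518 lay above every WT mouse while Nas497 did not. C3ar1, the receptor for the C3 fragment, had 7.78, 6.34 and 7.36 in Rac1-/- glands and 6.63, 6.49 and 6.65 in WT glands. The WT mice lay close together, and Nas497 lay just under them. Means were 7.16 ± 0.74 in Rac1-/- and 6.59 ± 0.091 in WT glands (SD, n = 3 each), a log2 difference of 0.57 (SE 0.50, 95% interval -0.58 to 1.71, limma adjusted p = 0.946). C5ar1, the receptor for the C5 fragment that draws neutrophils and macrophages, had 7.60, 5.81 and 7.70 in Rac1-/- glands and 5.68, 6.62 and 6.30 in WT glands. Nas497 lay inside the WT range here, and the log2 difference was 0.83 (SE 0.62, 95% interval -0.57 to 2.24, limma adjusted p = 0.946). Of the 8 members, C5ar1 had the highest estimate.

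Leaving out single mice moved the receptors in size but not in sign. Without Nas497 all 8 members lay above 0 and 4 separated the groups, where 9.56% of all genes did. C5ar1 was then the 1 member higher at an unadjusted p under 0.05, where 1.13% of all genes were. C3ar1 was 1.07 without Nas497 and 0.25 without Nas496. C5ar1 was 1.59 without Nas497 (unadjusted p = 0.0205, limma adjusted p = 0.998), and 0.52 without Nas478 or without Nas518. Without both Nas484 and Nas497, which left 2 mice a group, C3ar1 had 7.88 and 7.40 in Rac1-/- against 6.54 and 6.37 in WT glands, a log2 difference of 1.18 (SE 0.49). C5ar1 had 7.68 and 7.79 in Rac1-/- against 5.42 and 6.53 in WT glands in that comparison, a difference of 1.76 (SE 0.58, limma adjusted p = 0.626). C1qa and C1qb also separated there, at 0.75 and 0.79, so 4 of 8 members had every Rac1-/- above every WT value, where 21.0% of all genes did with 2 mice a group, and 0 lay wholly below, where 17.9% did. At an unadjusted p under 0.05 C5ar1 was the 1 member higher and 0 were lower, where 4.40% and 2.91% of all genes were. C1ra, C2 and Cfb stood at -0.26, -0.15 and -0.26 and overlapped. These values are from the brightest probe sets. With all arrays normalized together, the same mice overlapped on C1qb 1417063_at, C3ar1 1442082_at and C5ar1 1422190_at. They separated upward on C1qb 1434366_x_at and C3ar1 1419483_at.

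Several members have more than 1 probe set, and these did not always give the same picture. For C1qb the other probe sets gave 0.49 (SE 0.63) on 1434366_x_at and 0.50 (SE 0.50) on 1417063_at. On 1434366_x_at Nas497 and Nas484 were again the lowest mice, with 9.20, 7.57 and 9.49 in Rac1-/- and 8.79, 8.26 and 7.72 in WT glands. The probe set 1417063_at, whose suffix does not mark probes shared with related transcripts, had 8.69, 8.69 and 7.98 in Rac1-/- and 8.22, 7.31 and 8.33 in WT glands. Nas497 and Nas484 were not low on it, and the lowest mouse of each group was Nas518 and Nas483. The low C1qb values of Nas497 and Nas484 thus rest on the x_at probe sets.

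C3ar1 had 0.63 (SE 0.55) on 1419483_at, with 7.27, 5.85 and 7.37 in Rac1-/- and 6.23, 6.37 and 6.0 in WT glands, the same pattern as on its brightest probe set. The dimmer 1442082_at gave -0.21 (SE 0.96), with Nas497 at 3.35. For C5ar1 the probe sets differed: 1422190_at had 6.39, 6.55 and 5.62 in Rac1-/- and 5.68, 6.28 and 6.63 in WT glands, a difference of -0.0094 (SE 0.50). The higher C5ar1 mean in Rac1-/- glands was therefore seen on 1439902_at alone. The dimmer probe sets of C2 gave -0.79 (SE 0.91) on 1457664_x_at and -0.95 (SE 0.94) on 1416051_at. Of the 15 probe sets, 9 had a higher and 6 a lower mean in Rac1-/- glands, where 46.8% of all probe sets had a higher one, and 1 separated the groups upward and 0 downward, as 4.27% and 5.34% of all did. None had an unadjusted p under 0.05, where 1.72% of all probe sets were higher and 2.45% lower.

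**Figure D2:**
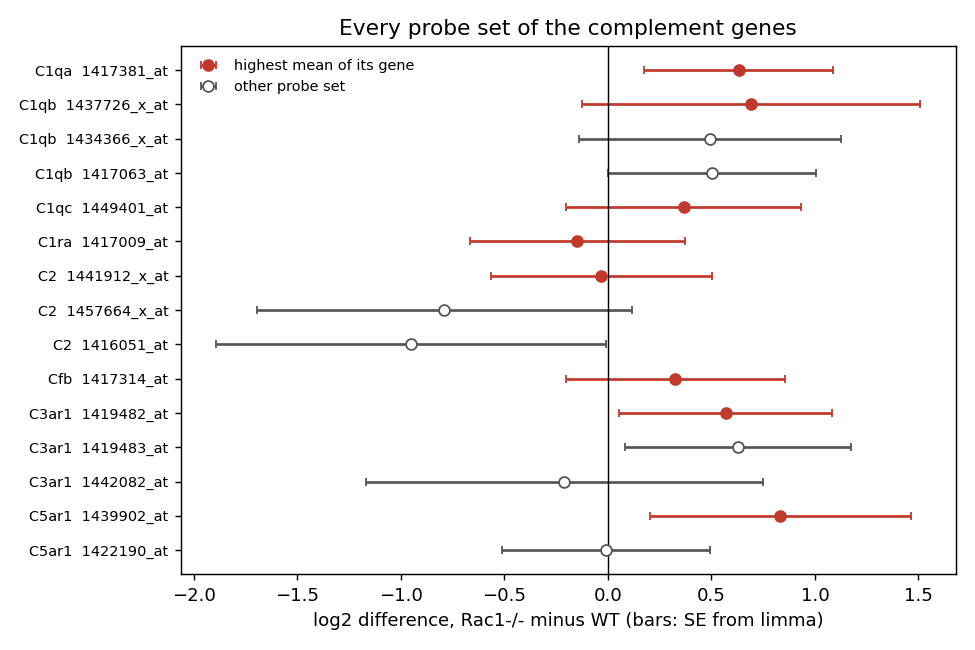
Log2 difference between Rac1-/- and WT glands (horizontal axis, n = 3 mice a group) for each of the 15 probe sets, with points for limma estimates and bars for standard errors, and filled red points for the probe set with the highest mean of its gene. The estimates run from -0.95 for C2 on 1416051_at to 0.83 for C5ar1 on 1439902_at, and the second probe set of C5ar1 lies at -0.0094.

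How the arrays were brought to a common scale decided the direction of C1q but not of the receptors. With quantile normalization the 8 members had a median log2 difference of 0.47, with 6 above and 2 below 0, beside 0.060 and 53.9% above 0 for all genes. When arrays were instead set to the same median, C1qa, C1qb and C1qc turned to -0.20, -0.12 and -0.46 and Cfb to -0.16, the members' median was -0.17 and 0 of 8 separated the groups, while the median of all genes moved to -0.13. Relative to that median C1qa stood at -0.067, C1qb at 0.013 and C1qc at -0.33, against 0.57, 0.63 and 0.31 with quantile normalization. Without normalization between arrays all 8 members lay above 0, with C1qa at 0.27 and C1ra at 0.30, but all genes had a median of 0.34. C3ar1 relative to the median of all genes stood at 0.51 with quantile normalization and 0.50 with either other scaling. C5ar1 stood at 0.77 and 0.94 in the same way. Setting arrays to the same median moves all genes of an array by the same log2 amount. Its relative values were therefore bound to match those without normalization, and only the comparison with quantile normalization is informative. In that comparison the receptors stayed above the median of all genes by similar amounts on these probe sets, and the C1q genes did not.

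Array quality measures taken as covariates raised the estimates of all members but Cfb, whose estimate was lower with actin and higher with the interquartile range. With the actin 3' minus 5' difference in the fit, C1qb was 2.47 (SE 0.75, unadjusted p = 0.0138), C5ar1 2.03 (SE 0.63, unadjusted p = 0.0156) and C3ar1 1.34 (SE 0.56, unadjusted p = 0.0495), each with a limma adjusted p of 0.760. These are 3 of the 8 members higher at an unadjusted p under 0.05 and 0 lower, where 2.79% and 3.72% of all genes were, and Cfb turned to -0.21 in the same fit. With the interquartile range in the fit all 8 members lay above 0, from 0.39 for C1ra to 1.88 for C1qb (unadjusted p = 0.0221, limma adjusted p = 0.999). C1qb was the 1 member past the unadjusted threshold there, where 2.11% of all genes were higher and 2.74% lower. Both covariates have their lowest value in Nas497, the Rac1-/- mouse with the lowest C1qb, and leave fewer degrees of freedom. The actin values of all Rac1-/- arrays lay below those of all WT arrays. The fit with actin thus compares the groups at values they do not share. The measured values of C1qb, C5ar1 and C3ar1 overlapped between the groups. These fits used the brightest probe set of each gene, and the other probe sets were not fitted with a covariate. Nas497 had the highest Rac1-/- value for C1qb on 1417063_at (8.69) and for C5ar1 on 1422190_at (6.55).

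**Figure D3:**
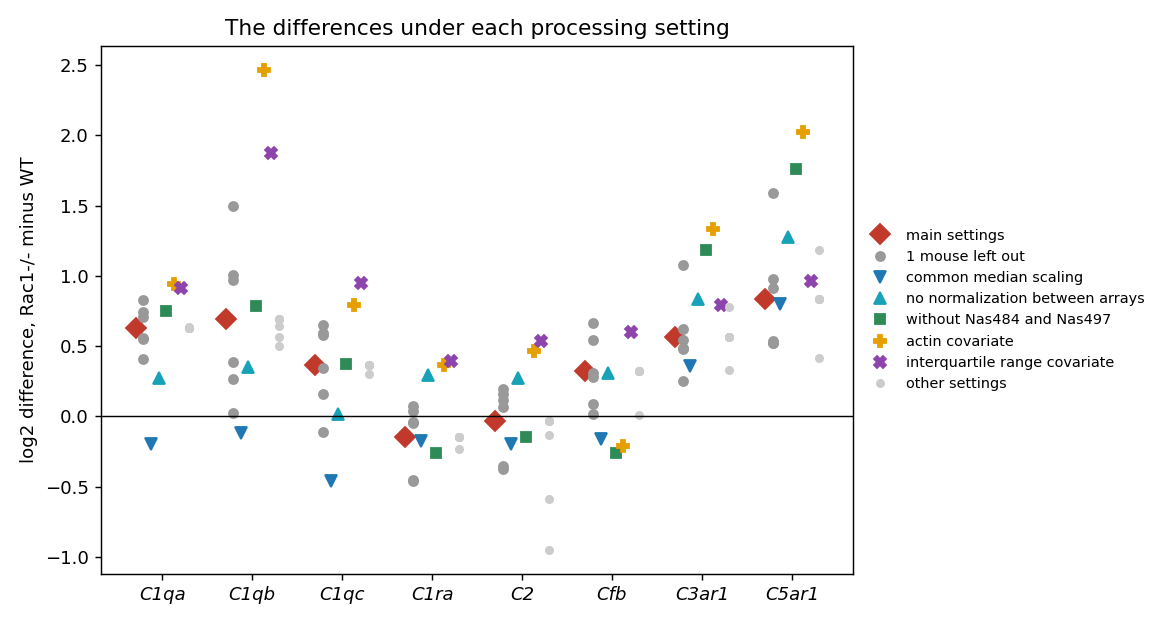
Log2 difference between Rac1-/- and WT glands (vertical axis) of each of the 8 members under the main settings (red diamonds) and under each alternative, with 1 point per setting. C3ar1 and C5ar1 stay above 0 on their brightest probe sets, whereas C1qa, C1qb and C1qc fall below 0 with common median scaling, at -0.20, -0.12 and -0.46.

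Of 45 other complement genes, 37 had a value. Of these 20 had a higher and 17 a lower mean in Rac1-/- glands, close to the 53.9% of all genes with a higher mean. Their median log2 difference was 0.31, where that of all genes was 0.060. None passed the adjusted threshold. At an unadjusted p under 0.05 in limma 1 was higher and 0 were lower, where 2.23% and 1.82% of all genes were. Wholly above WT lay 6 and wholly below 1, where 5.41% and 4.20% of all genes did. The gene past the unadjusted threshold was Itgb2, the shared beta chain of complement receptors 3 and 4, through which leukocytes take up C3-coated particles. Itgb2 had 7.94, 8.33 and 7.72 in Rac1-/- and 6.59, 6.96 and 6.82 in WT glands. The groups lay well apart, with a log2 difference of 1.20 (SE 0.43, unadjusted p = 0.0220, limma adjusted p = 0.946), between 1.02 and 1.38 when any 1 mouse was left out and 0.62 with common median scaling, where they overlapped. Nas497 was the highest of all mice for Itgb2, although it was low for C1qb and C3ar1.

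The alpha chains that pair with Itgb2 differed from each other. Itgax, the alpha chain of receptor 4 and a dendritic cell and macrophage gene, had 6.14, 6.64 and 6.63 in Rac1-/- and 5.64, 6.12 and 5.71 in WT glands, a difference of 0.65 (SE 0.43) with separate groups. Itgam, the alpha chain of receptor 3, had a difference of -0.14 (SE 0.62) and overlapped. Of the 9 receptors with a value besides C3ar1 and C5ar1, 5 had a higher mean in Rac1-/- glands, where 53.9% of all genes did. Their median was 0.50. Calr, the calreticulin that bridges C1q to the phagocyte surface, had the lowest estimate of them, -1.28 (SE 0.92), with overlapping groups.

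Among the recognition molecules and early proteases other than the members, 6 of 9 had a higher mean, where 53.9% of all genes did. Their median was 0.56. Mbl1, a mannose-binding lectin that starts the lectin pathway, had a difference of 1.01 (SE 0.50), and Mbl2, its partner lectin, had -1.45 (SE 0.93), both with overlapping groups. Both were dim, with mean levels of 5.44 for Mbl1 and 3.94 for Mbl2, where all genes averaged 6.38 in Rac1-/- and 6.30 in WT glands. With intensities floored at 16 instead of 1, Mbl2 had -0.64. Of 6 terminal components 4 had a higher mean, beside the same 53.9% of all genes. Hc, the gene of C5, whose fragment is the ligand of C5ar1, had 6.46, 7.43 and 6.77 in Rac1-/- and 4.77, 6.30 and 6.35 in WT glands. Its groups separated by a narrow gap, with a difference of 1.08 (SE 0.57), or 0.51 without Nas478.

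Regulators of complement were mixed. Of 5 soluble regulators with a value, 2 had a higher mean, where 53.9% of all genes did. These were also the ones that separated the groups, where 5.41% of all genes had Rac1-/- above WT. C4bp, which blocks the classical convertase, had 5.45, 5.70 and 4.79 in Rac1-/- and 4.51, 4.49 and 4.48 in WT glands. Its difference was 0.82 (SE 0.45), and it was dim, with a mean level of 4.90. Serping1, the C1 inhibitor that removes C1r and C1s from C1q, had 8.83, 8.29 and 8.31 in Rac1-/- and 7.97, 8.25 and 8.13 in WT glands, a difference of 0.36 (SE 0.43) that turned to -0.43 with common median scaling. Of 7 membrane regulators 3 had a higher mean, beside the same 53.9% of all genes. Susd4, a membrane inhibitor of the convertases, separated upward at 1.19 (SE 0.57) on its brightest probe set, with 0.71 without Nas478 and 0.52 over the mean of its probe sets, and it overlapped at -0.15 (SE 0.71) on the other. Cd46, also listed among the membrane regulators, had 5.91, 5.79 and 5.43 in Rac1-/- and 6.13, 5.93 and 6.50 in WT glands. It was the complement gene with every Rac1-/- below every WT mouse, at -0.48 (SE 0.43), and had 0.041 without normalization between arrays. The highest Rac1-/- and the lowest WT value of Cd46, 5.91 and 5.93, nearly met.

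**Figure D4:**
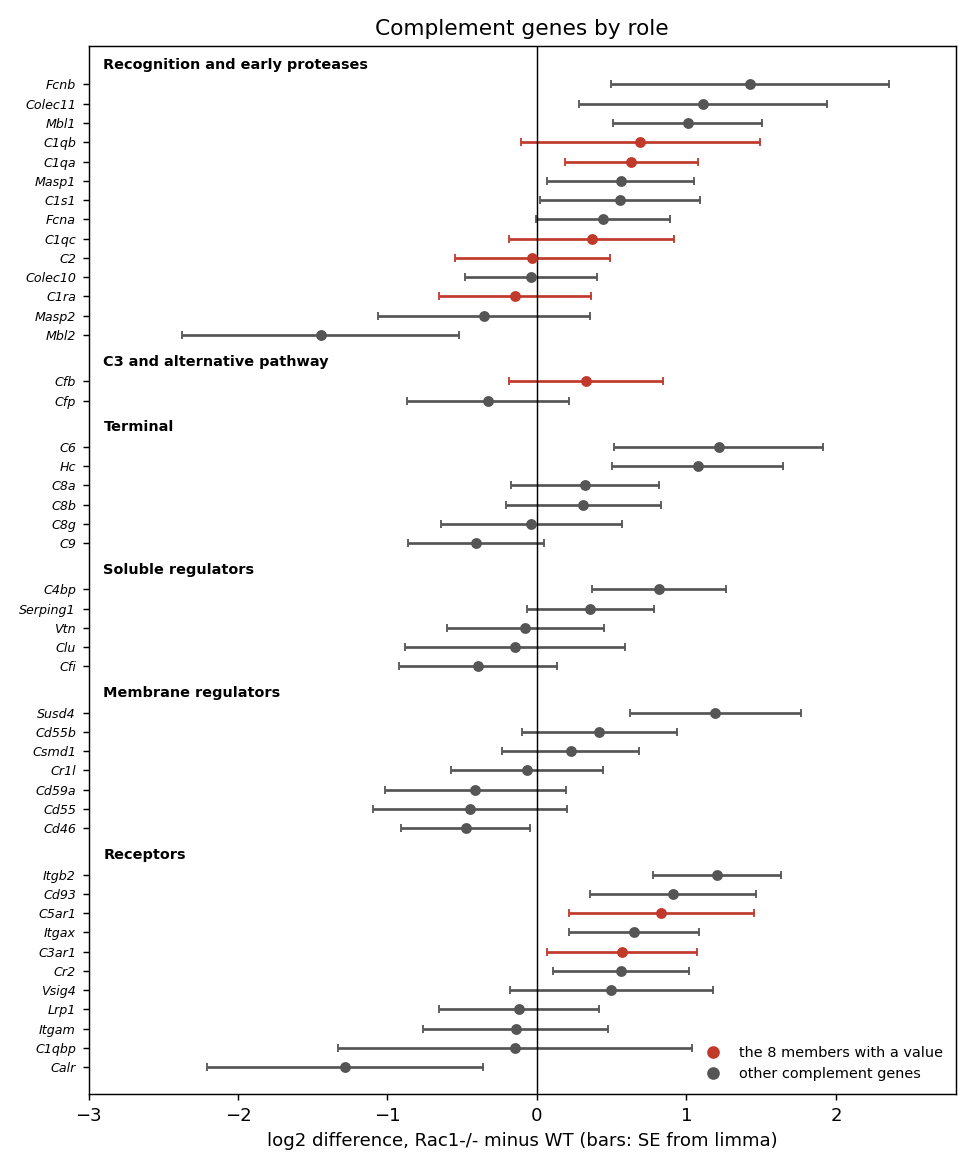
Log2 difference between Rac1-/- and WT glands (horizontal axis, n = 3 mice a group) for 45 complement genes by role, with points for limma estimates and bars for standard errors, and the 8 members in red. The estimates run from -1.45 for Mbl2 to 1.43 for Fcnb, and Itgb2 leads the receptors at 1.20.

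The mean of the macrophage markers put the mice in the same order as the mean of the C1q genes. Single markers did not all do so, and of the C1q chains only C1qb did, on its brightest probe set 1437726_x_at. On 1417063_at C1qb was highest in Nas497 (8.69) and lowest in Nas483 (7.31). A C1q mean with that probe set was not compared. The mean log2 intensity of 15 macrophage markers was 8.72, 7.65 and 8.48 in Rac1-/- (Nas496, Nas497, Nas518) and 7.81, 7.75 and 7.19 in WT glands (Nas478, Nas483, Nas484). Centred on the 6 mice, the mean of the C1q genes had 1.03, -0.46 and 0.27 in Rac1-/- and 0.20, -0.13 and -0.92 in WT glands. Fcer1g, Fcgr1 and Cx3cr1 were highest in Nas497, at 0.87, 0.99 and 1.05 on the centred scale, where C1q was at -0.46, and Cd163 was highest in the WT mouse Nas483, at 1.22. Of the 15 markers 14 had a higher mean in Rac1-/- glands, with a median log2 difference of 0.71, where 53.9% of all genes had a higher mean. The 1 marker wholly above WT, where 5.41% of all genes were, was also the 1 at an unadjusted p under 0.05, where 2.23% were higher. This was Fcer1g, an adaptor of Fc receptors, at 1.31 (SE 0.56). Ctss, a lysosomal protease, had 1.28 (SE 0.72), or 0.69 without Nas484 and 0.82 without Nas496, and the lysozyme gene Lyz2 had 0.82 (SE 0.47). With common median scaling Fcer1g had 0.50, Ctss 0.21 and Lyz2 -0.29. That scaling put the markers' median at 0.13. Without Nas497 it was 1.21. The part of macrophage number in the C1q and receptor values was not tested.

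Other cell types moved less evenly. Of 8 neutrophil markers with a value, out of 11 listed, 6 had a higher mean and 2 lay wholly above WT, where 53.9% and 5.41% of all genes did. These were Clec4d at 2.20 (SE 0.57) and Fpr2 at 1.63 (SE 0.45), whereas the granule gene S100a8 had -0.096 (SE 0.45). The mean neutrophil marker level was 6.24, 6.28 and 5.98 in Rac1-/- and 5.27, 5.37 and 5.80 in WT glands, with no overlap, and Nas497 was the highest mouse. For C5ar1, Nas497 was among the lowest on 1439902_at but the highest Rac1-/- mouse on 1422190_at. Fibroblast markers, from cells that also make C1r and C1s, ran from 7.97 to 9.68 in Rac1-/- and from 8.66 to 9.39 in WT glands. Of 8 luminal secretory markers 2 had a higher mean in Rac1-/- glands, 1 of them wholly above WT, where 5.41% of all genes were. The other 6 had a lower mean, 4 of them wholly below WT, where 4.20% of all genes were. These included the milk protein genes Csn2 at -0.86 (SE 0.42), Wap at -2.77 (SE 0.45) and Lalba at -2.07 (SE 0.52). The part of these cells in the complement values was not tested.

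The genes whose pattern over the 6 mice was nearest to the mean of the C1q genes, by the mean absolute difference of centred log2 values among 9094 genes above the median level, were Tgfb3 (0.088), Rhbdf1 (0.117), Lgals3 (0.122), Plb1 (0.142) and Cndp2 (0.143). The C1q genes themselves lay farther from their mean, at 0.302 for C1qa, 0.479 for C1qb and 0.240 for C1qc. The order thus tells of likeness to the averaged profile and not to any single chain. Lgals3 encodes galectin-3, a lectin of macrophages and epithelium, and Tgfb3 a growth factor made in the gland at involution. Tgfb3 had 9.98, 8.62 and 9.37 in Rac1-/- and 9.19, 8.94 and 8.41 in WT glands. The 15 macrophage markers were spread over this order, from Csf1r, a macrophage receptor gene, at 20th (0.197), Mpeg1 at 55th (0.231) and Aif1 at 62nd (0.238) to Cx3cr1 at 6167th (0.801), Fcgr1 at 6710th (0.858) and Fcer1g at 7547th (0.971). Of the receptors, C3ar1 came 238th at 0.303 and C5ar1 2246th at 0.512. The likeness is a description over 6 arrays that share their normalization. The 5 nearest genes lie below the mean of the mice in Nas497 and Nas484 and above it in Nas496, as the mean of the C1q genes does. In Nas497 that mean rests mostly on C1qb on 1437726_x_at, at -1.13 on the centred scale, while C1qa had 0.0070 and C1qc -0.24. On 1417063_at C1qb had 8.69 in Nas497, above its mean of 8.20 over the mice. The likeness was not computed with that probe set.

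**Figure D5:**
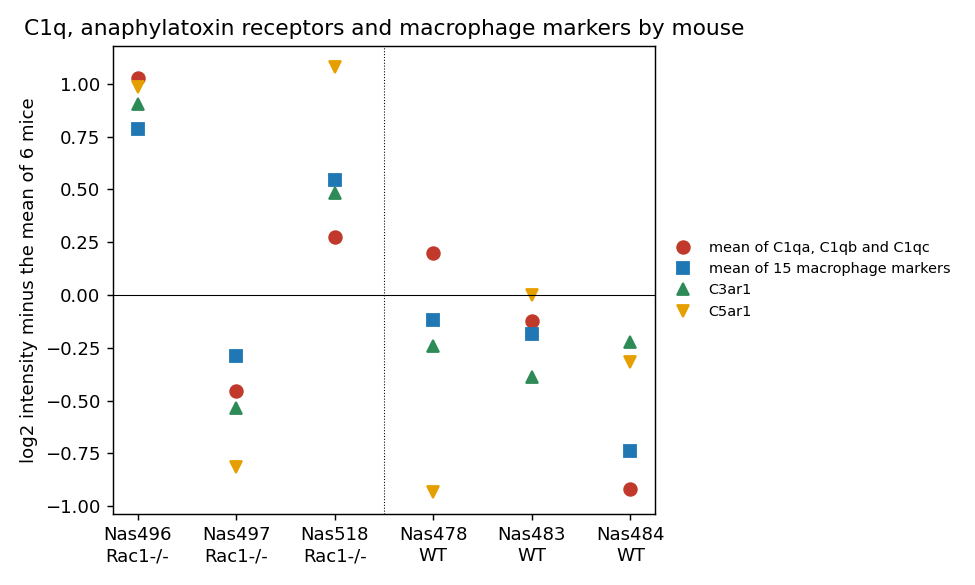
Log2 intensity minus the mean of the 6 mice (vertical axis) for the mean of C1qa, C1qb and C1qc, the mean of 15 macrophage markers, C3ar1 and C5ar1, with 1 column per mouse and Rac1-/- mice on the left. C1q and the macrophage markers are highest in Nas496, at 1.03 and 0.79, and lowest in Nas484, at -0.92 and -0.74. Nas497 lies below the mean of the mice for all 4 measures, with C1qb taken from 1437726_x_at and C5ar1 from 1439902_at.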

How the data were processed

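RNA of 6 glands, amplified by the authors with the Affymetrix Sensation kit for small, low-quality samples, was hybridized to Affymetrix mouse 430 arrays, 1 per mouse. The authors deposited 1 linear intensity per probe set for 45101 probe sets, while the sources used here name neither a summary method nor a normalization. Each array has a trimmed mean of 100.0 (2% taken off each end), and the medians ran from 40.6 to 88.0. No pair of arrays was identical (0 pairs), detection calls were not used here, and the number of arrays limits the precision.

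Intensities were quantile normalized (limma 3.58.1, R 4.3.3), floored at 1 and log2 transformed. The platform annotation gives 1 symbol for 34958 probe sets, several for 932 and none for 9211. Symbols were checked by Entrez ID for 34754, and 0 differed. For 9012 genes with several probe sets the one with the highest mean was used. Rac1-/- and WT glands were compared by limma's moderated test (lmFit, eBayes), with p-values adjusted after Benjamini and Hochberg across 18194 genes, and other probe sets in the same model over 34958 probe sets. The code was tested on simulated data. With 3 mice a group, the smallest two-sided p of an exact permutation test is 0.1, so none is given.

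Members and lists were chosen with earlier results of these data known. Named are all members, other complement genes with an unadjusted p under 0.05 or separate groups (or the 2 per role with the smallest p), in each marker list the gene with the highest mean and the 2 with the smallest p (given here for macrophage, neutrophil and luminal lists), Rac1, and the 5 genes nearest to C1q. The same choice around C3 could not be made. Itgam, Calr, Krt8, Krt18, Epcam, Csf1r, Mpeg1, Aif1, Cx3cr1, Fcgr1, Cd163 and Fcnb were named after their values were seen. Alternatives left out each mouse in turn, changed scaling, probe set choice, filter, floor or variance model, or added a covariate.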

Additional observations from a re-analysis of the deposited data

How the results depend on the processing

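No gene passed limma's adjusted threshold under any of the 17 alternatives (smallest adjusted p = 0.170), so no call of a member was gained or lost. At an unadjusted p under 0.05, leaving out 1 mouse gave between 205 and 1143 genes higher and between 186 and 535 lower, the extremes without Nas497, Nas484, Nas478 and Nas496. Leaving out 1 mouse put the median of the members between 0.12 (without Nas484) and 0.71, that of the other complement genes between 0.10 and 0.45 and that of the macrophage markers between 0.52 and 1.21. It turned the sign of C1qc (from -0.11 to 0.65), C1ra (from -0.46 to 0.076), C2 (from -0.37 to 0.20), Cfp (from -0.62 to 0.15) and S100a8 (from -0.29 to 0.17). The cause of the shifts below was not tested.

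Common median scaling gave 538 genes lower and medians of -0.17 for the members, 0.19 for other complement genes, 0.13 for macrophage markers and -0.13 for all genes, and it turned C1qa (-0.20), C1qb (-0.12), C1qc (-0.46), Cfb (-0.16), Serping1 (-0.43) and Lyz2 (-0.29). Of the genes at an unadjusted p under 0.05, 41.9% were then higher, against 55.0% with quantile normalization and 78.2% with none between arrays. Without normalization between arrays there were 646 higher and 180 lower, medians of 0.66 for other complement genes and 0.34 for all genes, and C1ra (0.30), C2 (0.28) and Cd46 (0.041) turned. The actin covariate gave 677 lower and a macrophage median of 1.5, and turned C1ra (0.37), C2 (0.46), Cfb (-0.21), Mbl2 (0.062) and Cfp (0.58). The interquartile range as covariate gave 499 lower and turned C1ra (0.39), C2 (0.53), Cfp (0.026) and S100a8 (0.13). Without Nas484 and Nas497 there were 800 higher and 530 lower, and Cfb (-0.26) and Cfp (0.15) turned. Array weights gave 902 and 551 and a median of 0.19 for other complement genes. Only 157 and 205 were left over the brighter genes, where fewer were tested. Other probe sets turned C3ar1 (-0.21) and C5ar1 (-0.0094). No paired analysis was possible because the labels give no replicate numbers that the groups share.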
